A study of Mus musculus with 300 samples.

Results

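The genes described here encode the proteins of the cytosolic ribosome. They were taken by symbol, as every gene name made of Rps or Rpl with a number and at most 1 further letter, together with Rpsa, Rplp0, Rplp1 and Rplp2. The rule gave 80 of the 23354 gene names in the table, 31 of the small and 49 of the large subunit. The rule leaves out a few ribosomal proteins with other names, among them Fau and Gnb2l1 (Rack1), which are given separately.

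The cells were CD9-bright, ID4-EGFP-positive spermatogonia sorted from testes of untreated adult mice that carry an ID4-EGFP reporter, in which green fluorescence follows Id4, a gene of the undifferentiated spermatogonial pool. RNA from 300 single cells was amplified on a Fluidigm C1 chip and sequenced, and levels are FPKM, fragments per kilobase of transcript scaled to the mapped fragments of the cell. All cells share the sort gate, and each of the 4 preparations pooled 2 or more mice, so that no value belongs to a single animal. The preparations held 67, 82, 71 and 80 cells, each cell was placed in 1 of 4 quartiles of EGFP brightness, from Q1 (brightest, 79 cells) through Q2 (78) and Q3 (71) to Q4 (dimmest, 72), and every preparation and quartile held 15 to 22 cells. The preparation is the replicate throughout (n = 4).

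The cytosolic ribosome is built from ribosomal RNA and one copy of most ribosomal proteins, which are made in matched amounts and are among the most abundant gene products of growing cells. Several of the genes lie on the X chromosome, which is silenced in male germ cells at meiosis, and autosomal copies of X-linked ribosomal protein genes, such as Rpl10l and Rpl39l, are known for their expression in the testis. Spliced ribosomal protein messages have also been copied back into the genome many times, and the genome holds many processed pseudogenes that resemble them.

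Most of the listed germ cell markers were found in most of the sorted cells. Dazl, Uchl1 and Mael, germ cell genes, were at 1 FPKM or more in all 300 cells. Ddx4, the germ cell RNA helicase, was so in 99.7% of them, Sall4 in 98%, Tex101 in 95.7%, Dmrt1 in 94.7% and Zbtb16 in 89.3%. Stra8 was listed at that level in 67%, Gfra1 in 58%, Kit in 31% and Dppa3 in 6%. Of the markers of other testis cells, Cldn11 and Fshr of Sertoli cells, Cyp17a1 and Hsd3b1 of Leydig cells and the 5 globin rows were listed at 0 in every cell. The myoid genes Acta2 and Cnn1 were at 1 FPKM or more in 0.333% and 0.667% of cells, Myh11 and Des in 1.67% each and Tagln in 4.33%. Some cells listed genes of other testis cells. At least 1 gene of the list was at 1 FPKM or more in 104 cells for endothelium, 79 for macrophages, 68 for Sertoli, 39 for Leydig and 21 for myoid cells. The leading genes were Flt1 (21.7% of cells), Cd68 (15%), Sox9 and Rhox5 (7.33% each), Star (12%) and Tagln (4.33%). Markers of later germ cells, pachytene spermatocytes and spermatids, were listed in more cells. At least 1 was at 1 FPKM or more in 235 cells for the pachytene and 234 for the spermatid list. Hspa2 (57.7% of cells) and Tnp1 (51%) led these lists. Ptprc, Csf1r and Emr1 of macrophages were at 1 FPKM or more in 9 cells each and Pecam1 of endothelium in 8. The summed FPKM of the 6 macrophage genes, most of it Lyz2, ranged over preparations from 0.0549 to 351 in Q1 and from 1.69 to 118 in Q4. Of the cells, 25 had Ptprc, Csf1r, Emr1, Pecam1 or one of the myoid genes Acta2, Myh11 and Cnn1 at 1 FPKM or more. They numbered 5, 5, 11 and 4 from Q1 to Q4, and each count of members called was repeated without them. Cells that listed only other genes of these lists, such as Cd68 or Flt1, were kept in that repeat. Cells of preparation 1 held fewer genes at 1 FPKM or more than the others, with a mean of 4363 over its quartiles against 5564 to 6218. In bulk over a quartile, fewer cells with a transcript and less transcript per cell give the same mean, so both are given below where they differ.

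A few paralogue pairs carry much of what follows, and the coding sequences of the X-linked genes Rpl39 and Rpl10 and their autosomal copies are shown to give the differences between the copies. Rpl39 and Rpl39l encode eL39, a small protein at the exit tunnel of the large subunit. Rpl39 lies at chrX:37082520-37085402 on the minus strand and the autosomal Rpl39l at chr16:10170226-10174911 on the plus strand of GRCm38 (GENCODE annotation). Each reading frame has 156 bases, capitals mark the 23 bases at which they differ, and the identity is 85.3%.
Rpl39: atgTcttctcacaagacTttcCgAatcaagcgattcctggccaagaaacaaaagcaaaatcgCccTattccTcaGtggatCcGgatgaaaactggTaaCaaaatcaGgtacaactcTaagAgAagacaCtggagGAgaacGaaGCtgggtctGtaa
Rpl39l: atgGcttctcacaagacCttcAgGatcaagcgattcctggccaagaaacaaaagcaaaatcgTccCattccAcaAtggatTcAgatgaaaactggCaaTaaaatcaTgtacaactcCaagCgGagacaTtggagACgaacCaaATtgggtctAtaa
Rpl10, at chrX:74270812-74273135 on the plus strand, and Rpl10l, at chr12:66283379-66284401 on the minus strand, both encode uL16, a protein placed late in large subunit assembly. Their reading frames have 645 bases each and differ at 98 of them (84.8% identity), and the first 150 bases are shown with their 25 differences in capitals.
Rpl10: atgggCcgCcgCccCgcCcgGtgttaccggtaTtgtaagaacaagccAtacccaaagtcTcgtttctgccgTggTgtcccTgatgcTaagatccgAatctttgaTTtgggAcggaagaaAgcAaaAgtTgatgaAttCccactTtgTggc
Rpl10l: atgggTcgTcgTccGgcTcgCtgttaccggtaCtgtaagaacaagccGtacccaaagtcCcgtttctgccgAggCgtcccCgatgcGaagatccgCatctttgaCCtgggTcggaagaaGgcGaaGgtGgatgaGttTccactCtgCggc
The longest identical run was 38 bases in the Rpl39 pair and 23 bases in the Rpl10 pair, and neither pair shared a stretch of 50 bases.

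The listed levels of the members spanned a wide range. On the log2(FPKM + 1) scale, averaged over the 16 means of preparation and quartile, the members ran from 0.24 for Rpl12 to 11.20 for Rpl41, with a median of 5.14 against 1.97 over all 10411 genes that passed the filter on low values (1 FPKM or more in at least 30 cells). The filter kept 79 of the 80 members and dropped Rpl3l. Rpl41, which encodes a very short basic peptide of the large subunit, had a mean of 2482 FPKM, Rpl4 1680 and Rpl8, a protein near the peptidyl transferase centre, 1393. The 5 highest genes held 43.4% of the members' summed FPKM, the 20 highest held 87.5% and the 40 lowest 2.64%. At the other end of the log2 scale, Rpl12 of the stalk base had a mean of 0.375 FPKM, Rpl3l 3.56, Rps12 1.07, Rpl17 1.79 and Rpl11 1.26.

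Preparations gave similar levels for the most abundant members. The preparation means of Rpl41 were 11.22, 11.25, 11.25 and 11.09. Rpl4 at 10.56 to 10.73 and Rpl8 at 10.13 to 10.57 lay below it in every preparation. Of the 80 members, 37 were at 1 FPKM or more in all 300 cells, 41 were listed at 0 in at least 1 cell, and 11 were listed at 0 in more than 150 cells. The last group included Rpl12 (263 cells), Rps27 and Rps12 (239 cells each), Rpl36a (216) and Rpl10 (154). An exact 0 in a table of this kind may be a failed estimate as well as an absent transcript, and the 2 cannot be told apart here.

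**Figure D1:**
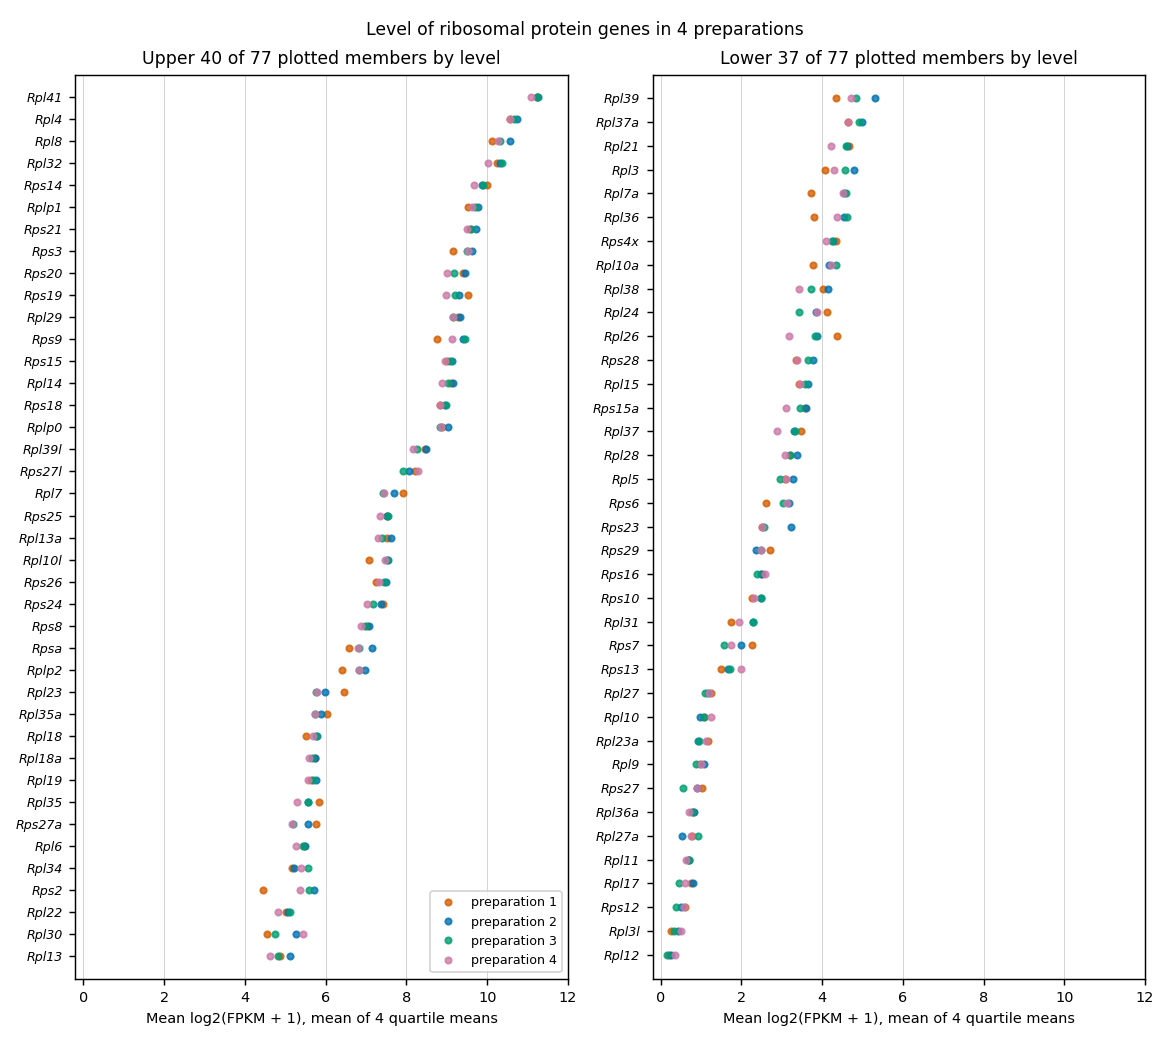
Level of 77 of the 80 genes, as the mean of its 4 quartile means of log2(FPKM + 1) on the horizontal axis, with 1 point for each preparation; the genes are sorted by level in 2 columns. The levels run from 0.24 (Rpl12) to 11.20 (Rpl41), while the points of 1 gene mostly lie close together.

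The low members were mostly those whose transcripts resemble other annotated genes. For each member the share of the 100-base stretches of its transcript that also occur in a transcript of another gene was counted in the GENCODE annotation. Among the 12 lowest members this share had a median of 78.6% (range 0 to 98.4%), with a median of 13.5 pseudogenes that held a stretch of 50 bases, and among the 12 highest it was 5.52% (range 0 to 41.4%), with 2.5 pseudogenes. The 16 members with a share of at most 10% had a median level of 9.15, the 36 members between 10 and 50% a median of 5.17 and the 28 members over 50% a median of 4.23. Across the 80 members Spearman's rho between level and share was -0.57 and Pearson's r -0.58. With 50-base stretches they were -0.40 and -0.42. These are descriptions across genes that share the same cells and mapping. Over the 9773 tested genes found in the annotation, 3.4% had more than 50% of their 50-base stretches in another gene, against 37 of the 80 members.

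Single genes depart from that ordering. Rpl3l, whose protein replaces Rpl3 in striated muscle, was low (0.38) with none of its 100-base stretches shared, and Rpl12 was the lowest with 46.8%. Rpl41 was the highest with 17.2%. How the authors' software divided reads between near-identical copies is not given in the sources used here, so the levels of Rps27 (98.4% of 100-base stretches shared), Rpl10 (91.6%), Rpl36a (83.6%), Rps12 (81.4%) and Rpl17 (77.1%) are uncertain, and the part that shared sequence has in any level was not tested.

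**Figure D2:**
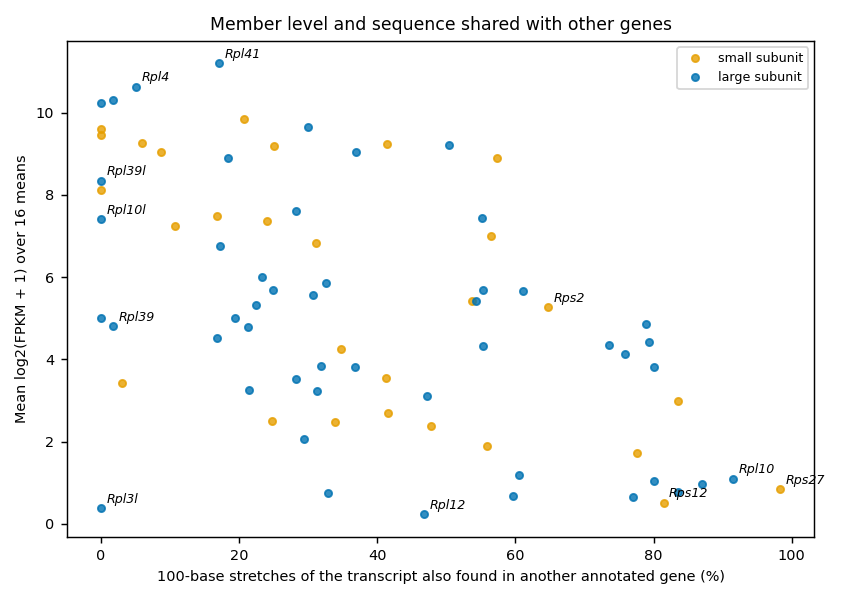
Level of 77 of the 80 genes (vertical axis, mean log2(FPKM + 1) over the 16 means) against the percent of its 100-base transcript stretches that also occur in another annotated gene (horizontal axis); colours mark the subunits. Over all 80, the 16 genes at 10% or less have a median level of 9.15 and the 28 genes above 50% a median of 4.23. At little sharing, Rpl3l is low (0.38) and Rpl39 (4.81) lies near the median of all members (5.14).

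The level of the members per cell, relative to the cell's mapped fragments, did not follow EGFP brightness in the same direction in every preparation. The mean over the 80 members of log2(FPKM + 1) in a cell was 5.35 ± 0.09, 5.38 ± 0.08, 5.33 ± 0.12 and 5.39 ± 0.17 from Q1 to Q4 (SD, n = 4 preparations). From Q1 to Q4 it went from 5.44 to 5.25 in preparation 1 and from 5.38 to 5.25 in preparation 4, and from 5.34 to 5.60 in preparation 2 and from 5.23 to 5.46 in preparation 3. The difference Q1 minus Q4 was therefore 0.19, -0.26, -0.23 and 0.13, with a mean of -0.04 ± 0.24 (SD, n = 4), a mean smaller than its spread. The share of a cell's FPKM sum held by the members showed the same pattern. It averaged 4.61 ± 0.40% among bright Q1 cells and 4.91 ± 0.56% among dim Q4 cells (SD, n = 4), and Q1 minus Q4 was 0.347, -0.998, -0.974 and 0.42 percentage points in preparations 1 to 4. Single cells ranged from 2.73 to 8.11%, with a median of 4.67%. Without preparation 2 or without preparation 3 the mean difference in the per-cell mean turned to 0.03 and 0.02.

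Members at 1 FPKM or more per cell also showed little difference, with means over preparations of 68.2 ± 0.9 (Q1) and 67.9 ± 0.9 (Q4; SD, n = 4) and 54 to 75 over single cells. Genes detected in all were higher in Q1 by 329, 624 and 561 in preparations 1 to 3 and lower by 190 in preparation 4 (mean 331 ± 370, SD, n = 4). Across cells of a preparation the per-cell mean of the members correlated with the number of genes detected at r = 0.05, -0.33, -0.15 and -0.09 (67 to 82 cells each). These values share the libraries' depth and are a description.

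Single members mostly differed little between bright and dim cells. The test was limma's moderated test on the 16 means with the preparation as block and Benjamini-Hochberg adjustment over all 10411 tested genes. Between Q1 and Q4, 1 of 79 tested members passed an adjusted p of 0.05 as higher in Q1, where 2.72% of all tested genes did, and 0 of 79 as lower, where 0.528% did. In the trend over the 4 quartiles, 1 member rose towards bright cells (3.77% of all tested genes) and 1 fell (0.74%). At an unadjusted p under 0.05, 7 of 79 members (8.86%) passed the Q1 against Q4 test, against 16.3% of all tested genes. The member differences lay between -1.10 and 1.79, and 74 of 79 (93.7%) were smaller than 0.5 in size, against 73.1% of all tested genes. Their median was -0.08 beside 0.10 over all tested genes, and 52 of 79 were negative (65.8%) beside 40.4% of all tested genes. The number of negative members fell to 31 with the number of detected genes as a covariate and to 36 without preparation 3, and rose to 67 with the means centred on the median tested gene.

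**Figure D3:**
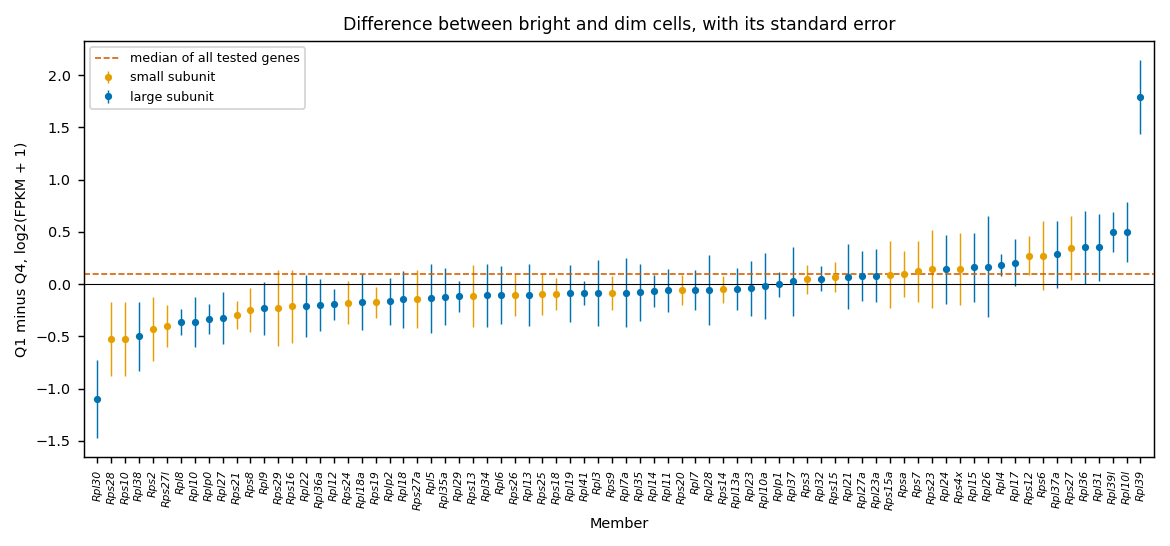
Q1 minus Q4 difference of log2(FPKM + 1) for 76 of the 79 tested genes, sorted, with its standard error from limma as bars; the dashed line is the median of all tested genes (0.10). Most genes lie within 0.5 of 0, and Rpl39 (1.79) and Rpl30 (-1.10) stand at the ends.

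Both subunits held few of the calls, whose shares over all tested genes are given above. Of the 31 small subunit members none passed in either direction and their median difference was -0.10, with Rps28 (-0.52) and Rps10 (-0.52) the most negative and Rps27 (0.35) the most positive. Of the 48 tested large subunit members Rpl39 passed in both tests and Rpl30 in the trend, and their median difference was -0.07. At an unadjusted p under 0.05 in limma's Q1 against Q4 test the counts were 2 of the small (6.45%) and 5 of the large subunit members (10.4%). Over all tested genes the share was 16.3%.

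Rpl39 was higher in bright cells. Its means in preparation 1 were 5.57, 4.69, 3.95 and 3.15 from Q1 to Q4. In preparation 3 they were 5.80, 5.45, 4.27 and 3.88, and in preparation 4 they were 6.15, 5.18, 3.97 and 3.58. These 3 preparations stepped down at every quartile. Preparation 2 gave 5.73, 5.29, 4.79 and 5.47, so that its dim cells were nearly as high as its bright ones. The means of Q1 were 5.81 ± 0.24 and those of Q4 4.02 ± 1.01 (SD, n = 4), the 2 ranges did not overlap, and Q1 was higher in 4 of 4 preparations. The difference was 1.79 (SE 0.35, adjusted p = 0.0039, limma) and the trend 0.63 per quartile step (SE 0.11, adjusted p = 0.00087, limma). Without preparation 4 the difference was 1.54 (limma adjusted p = 0.077), and with log2 of the mean FPKM in place of the mean of the log values it was 0.72 (limma adjusted p = 0.243) and the trend 0.28 (limma adjusted p = 0.112). With no preparation block the difference of 1.79 had an adjusted p of 0.0551 (limma). Without the 25 cells that listed Ptprc, Csf1r, Emr1, Pecam1, Acta2, Myh11 or Cnn1 it was 1.95 (limma adjusted p = 0.0039).

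Fewer dim than bright cells listed Rpl39. It was listed at 0 in 56 of the 300 cells, and in the remaining 244 it lay at 4.77 FPKM or more, with a median of 64.8. The share of cells at 1 FPKM or more was 94.1, 95.2, 89.5 and 95.5% in Q1 of preparations 1 to 4. In Q4 it was 50, 85, 66.7 and 68.4%, below the lowest Q1 value in every preparation, and the means over preparations were 93.6, 84.3, 78 and 67.5% from Q1 to Q4. Among the cells that listed it, the mean level was 6.21, 6.11, 5.48 and 5.95 from Q1 to Q4. From Q1 to Q4 it went up in preparation 1 (5.92 to 6.31) and preparation 2 (6.02 to 6.43), and down in preparation 3 (6.48 to 5.82) and preparation 4 (6.44 to 5.24). The slope of that level was 0.14 per step (exact two-sided permutation p = 0.25, 4 preparations), in a comparison chosen after the separate classes of cells had been seen.

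Genes detected did not differ in 1 direction between cells with and without Rpl39. The means were 4426 and 4184 genes in preparation 1, 5770 and 6064 in preparation 2, 5624 and 5336 in preparation 3 and 6203 and 6273 in preparation 4, for cells with and without it. The mean over the members was higher in cells with Rpl39 in 4 of 4 preparations, at 5.35, 5.50, 5.39 and 5.31 against 5.25, 5.27, 5.19 and 5.23, and so was Rpl39l, at 8.53, 8.49, 8.31 and 8.20 against 8.21, 8.48, 8.12 and 8.01. The member mean includes Rpl39 itself, so part of its difference is built into the split of cells, and these are descriptions. With detected genes as a covariate Rpl39 still passed in both tests. No annotated exon of another gene overlapped those of Rpl39, and 16.2% of its 50-base and 1.75% of its 100-base stretches occur in other genes. The spermatid marker Tnp1, a basic chromosomal protein, and Gfra1, the GDNF co-receptor of undifferentiated spermatogonia, were also higher in Q1, by 1.81 (limma adjusted p = 0.014) and 3.44 (limma adjusted p = 7.81e-06). Of the 6 spermatid markers 5 were tested and 1, Tnp1, passed, while Tnp2 and Prm2 had -0.17 each. The median over the 5 tested was 0.098. Of 11 tested germ cell markers Gfra1 passed as higher in Q1, and Uchl1 (-0.77, limma adjusted p = 0.00535) and Stra8 (-1.60, limma adjusted p = 0.0428) as lower, with a list median of -0.16. The summed FPKM of the 6 spermatid markers ranged over preparations from 61.1 to 99.8 in Q1 and from 19.3 to 79.8 in Q4. The part of these genes in the Rpl39 result was not tested.

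**Figure D4:**
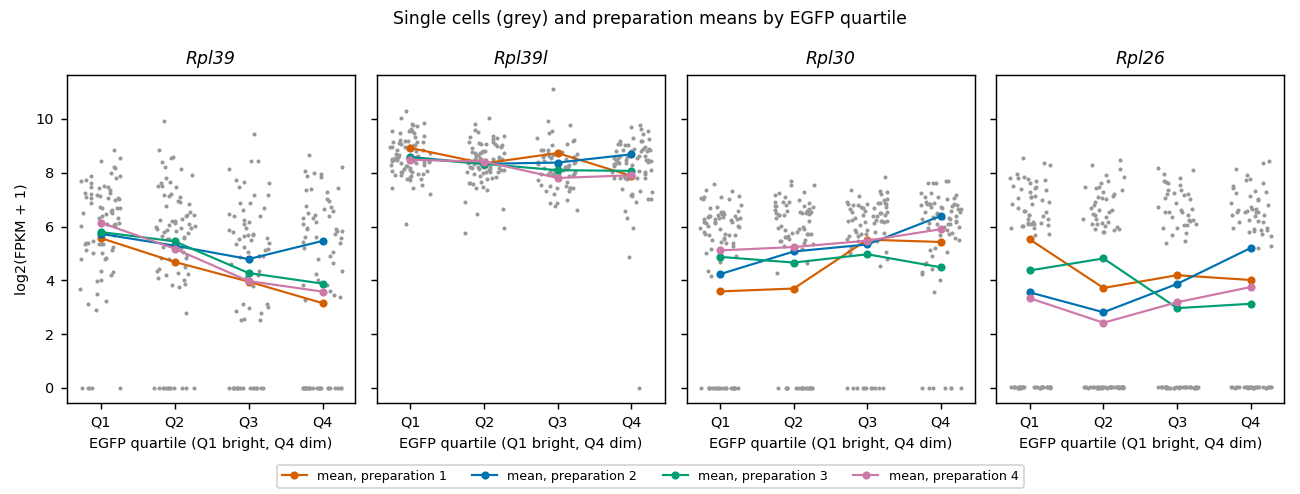
Level of 4 genes in single cells (grey points) and as preparation means (coloured lines) by EGFP quartile, on a log2(FPKM + 1) axis. The Rpl39 mean is lower in Q4 than in Q1 in each preparation, and more Q4 than Q1 cells lie at 0. Rpl39l is listed in nearly every cell, and Rpl30 and Rpl26 fall into 2 separate classes of cells.

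Rpl30, a large subunit protein, changed the other way in the trend. Its means were 3.59, 3.70, 5.51 and 5.43 from Q1 to Q4 in preparation 1. They were 4.23, 5.07, 5.33 and 6.40 in preparation 2, and 5.11, 5.24, 5.47 and 5.90 in preparation 4. Preparation 3 differed from these, with 4.87, 4.66, 4.97 and 4.48. The trend was -0.40 per step towards bright cells (SE 0.12, adjusted p = 0.046, limma), and Q1 minus Q4 was -1.10 (SE 0.37, adjusted p = 0.113, limma), lower in Q1 in 3 of 4 preparations. The trend call was lost in 9 of 13 other settings, among them without preparation 1 (-0.28, limma adjusted p = 0.211), without preparation 2 (-0.30, limma adjusted p = 0.295) and without preparation 4 (-0.44, limma adjusted p = 0.115). Without preparation 3 the Q1 against Q4 difference passed, at -1.60 (limma adjusted p = 0.0466). It also passed without the 25 cells that listed Ptprc, Csf1r, Emr1, Pecam1, Acta2, Myh11 or Cnn1, at -1.38 (limma adjusted p = 0.0366).

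Rpl30 and Rpl26 each split the cells into 2 classes with an empty interval between them. Rpl30 was at 0.00577 FPKM or less in 58 cells, never exactly 0, and at 10.8 FPKM or more in the other 242. Rpl26, also of the large subunit, was at 0.017 FPKM or less in 133 cells and at 35.8 FPKM or more in 167. The share of cells in the upper class of Rpl30 was 58.8, 71.4, 78.9 and 81.8% in Q1 and 88.9, 100, 73.3 and 94.7% in Q4 of preparations 1 to 4. The means over preparations were 72.8% in Q1 and 89.2% in Q4. Among upper-class cells the Rpl30 level was 6.11 in Q1 and 6.21 in Q4, and the slope of that level was -0.04 per step (exact two-sided permutation p = 0.274, 4 preparations, chosen after the classes had been seen). The upper class of Rpl26 held 60.5% of Q1 and 60.2% of Q4 cells, and Rpl26 had a Q1 minus Q4 difference of 0.17 (SE 0.48, limma adjusted p = 0.908). Exons of Rpl30 overlap those of Gm24523 on the same strand and D730044K07Rik on the opposite strand, and 29.7% of its 50-base stretches and 71.3% of those of Rpl26 occur in other genes. Whether these classes reflect the assignment of reads was not tested.

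The X-linked members did not share a direction. Rpl39 differed as above, Rps4x, a small subunit protein with a Y-linked homologue in primates, had a difference of 0.15 (SE 0.35), Rpl36a -0.20 (SE 0.25) and Rpl10 -0.36 (SE 0.24), and limma adjusted p was between 0.49 and 0.888 for these 3. Rpl10 had non-overlapping values, 0.81 to 1.07 in Q1 and 1.22 to 1.55 in Q4, at a level near 1 FPKM.

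The P-stalk, the lateral arm that recruits the elongation factors, is made of Rplp0, Rplp1 and Rplp2. Rplp0, its base, was lower in Q1 in 4 of 4 preparations. Its Q1 means were 8.68, 8.76, 8.56 and 8.76 and its Q4 means 8.93, 9.16, 9.08 and 8.91, which did not overlap, and the difference was -0.33 (SE 0.14, limma adjusted p = 0.243). Rplp2 differed by -0.16 (SE 0.23) and Rplp1 by -0.0025 (SE 0.12), which turned to 0.015 with cells rescaled to an equal FPKM sum. Over all 79 members, 1 was higher in Q1 without overlap (4.39% of all tested genes) and 2 were lower without overlap, Rplp0 and Rpl10 (1.46%).

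The next members by p all missed the threshold. Rpl8 was lower in Q1 in 4 of 4 preparations, with Q1 means of 10.00, 10.04, 10.05 and 10.21 and Q4 means of 10.19, 10.81, 10.45 and 10.30, which overlap by a little, and a difference of -0.36 (SE 0.12, limma adjusted p = 0.112). With the means centred on the median tested gene Rpl8 passed in the trend, beside Rpl30, a setting that lowered the median of all tested genes from 0.10 to -0.08. Of the positive differences after Rpl39, Rpl10l and Rpl39l had 0.50 each (SE 0.29 and 0.19, limma adjusted p = 0.403 and 0.182), and Rpl31 and Rpl36 0.35 each. Of the negative ones after Rpl30, Rpl38 had -0.50 and Rps2 -0.43. The widest differences between preparations were those of Rps2, Rpl26 and Rpl39.

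Paralogues outweighed their partners in several pairs. Rpl39l was above Rpl39 in 286 of 300 cells, with a mean of 382 against 83.1 FPKM. Rpl10l had 265 against 2.19 FPKM for Rpl10 and was higher in 290 cells, Rpl36al 246 against 1.73 FPKM for Rpl36a and higher in 300 cells, and Rps27l, known as a p53 target, 343 against 4.75 FPKM for Rps27 and higher in 299 cells. In these last 3 pairs the lower partner is one with 85.5 to 98.6% of its 50-base stretches in other genes, so its level is uncertain. Rpl22l1 had 175 FPKM against 38.3 for Rpl22, a pair in which Rpl22 shares 5.19% of its stretches, and was higher in 274 cells. Rps4y2, listed in the annotation as an older name of Rps4l, a transcribed copy of Rps4x, had 714 against 30.9 FPKM, and 72.2% of the 50-base stretches of Rps4x occur in other genes, so this level is uncertain too. The canonical gene was the higher one in the remaining pairs, with 24.4 FPKM for Rpl3 against 3.56 for Rpl3l and 211 for Rpl7 against 64.5 for Rpl7l1.

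Quartile differences within pairs were tested on the paralogue's log2(FPKM + 1) minus that of its partner in each cell, by shuffling quartile labels inside each preparation in every possible way (an exact permutation test, two-sided), with adjustment over the 8 pairs. Of the 8 paralogues Rpl22l1, Rpl36al, Rpl7l1 and Rps4y2 fall outside the naming rule and enter here only as partners of a member. The Rpl39l minus Rpl39 difference averaged 2.82 ± 0.42 among Q1 cells and 4.12 ± 0.64 among Q4 cells (SD, n = 4). It fell by 0.53, 0.17, 0.53 and 0.66 per step towards bright cells in preparations 1 to 4, and the mean slope was -0.47 (exact permutation p = 0.000102, adjusted p = 0.00082). The rise of Rpl39 and the smaller positive difference of Rpl39l went the same way on average, and Rpl39l was higher in Q1 in 3 of 4 preparations. Among cells that had both at 1 FPKM or more the slope was -0.003 (exact permutation adjusted p = 0.986), and with log2 of the mean FPKM it was -0.17 (exact permutation adjusted p = 0.308).

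The Rpl22l1 minus Rpl22 difference went the other way. Rpl22 encodes an RNA-binding protein of the large subunit that cells can lack, and Rpl22l1 is its paralogue. The difference averaged 2.40 ± 0.17 among Q1 cells and 1.49 ± 0.73 among Q4 cells (SD, n = 4), with slopes of 0.62, 0.15, 0.02 and 0.46 in preparations 1 to 4 and a mean of 0.31 (exact permutation p = 0.0044, adjusted p = 0.018). Rpl22 itself was 4.99 in Q1 and 5.19 in Q4, and Rpl22l1 was 7.38 ± 0.37 and 6.68 ± 0.80. Alone, neither passed, with differences of -0.21 (limma adjusted p = 0.805) and 0.70 (limma adjusted p = 0.199). The call was lost without preparation 1 (0.21, exact permutation adjusted p = 0.0787), without preparation 2 (0.37, exact permutation adjusted p = 0.0694), without preparation 4 (0.27, exact permutation adjusted p = 0.173) and with log2 of the mean FPKM (0.14, exact permutation adjusted p = 0.308).

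The Rpl10l minus Rpl10 difference had a positive slope in 4 of 4 preparations (0.23, 0.27, 0.11 and 0.51, mean 0.28, exact permutation p = 0.029), and missed the threshold after adjustment (p = 0.076). The slopes of the other 5 pairs lay between -0.15 (Rps27l minus Rps27) and 0.005 (Rpl36al minus Rpl36a), with exact permutation adjusted p from 0.584 to 0.948, and their directions differed between preparations. Of paralogues listed in some cells only, Rpl3l was at 1 FPKM or more in 8.67% of cells and Rpl7l1 in 91.3%, and the share of cells changed by -1.53 and -0.78 percentage points per step (exact permutation adjusted p = 0.292 and 0.643). Without preparation 2 the Rpl3l change passed, at -2.80 points per step (exact permutation adjusted p = 0.0237).

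**Figure D5:**
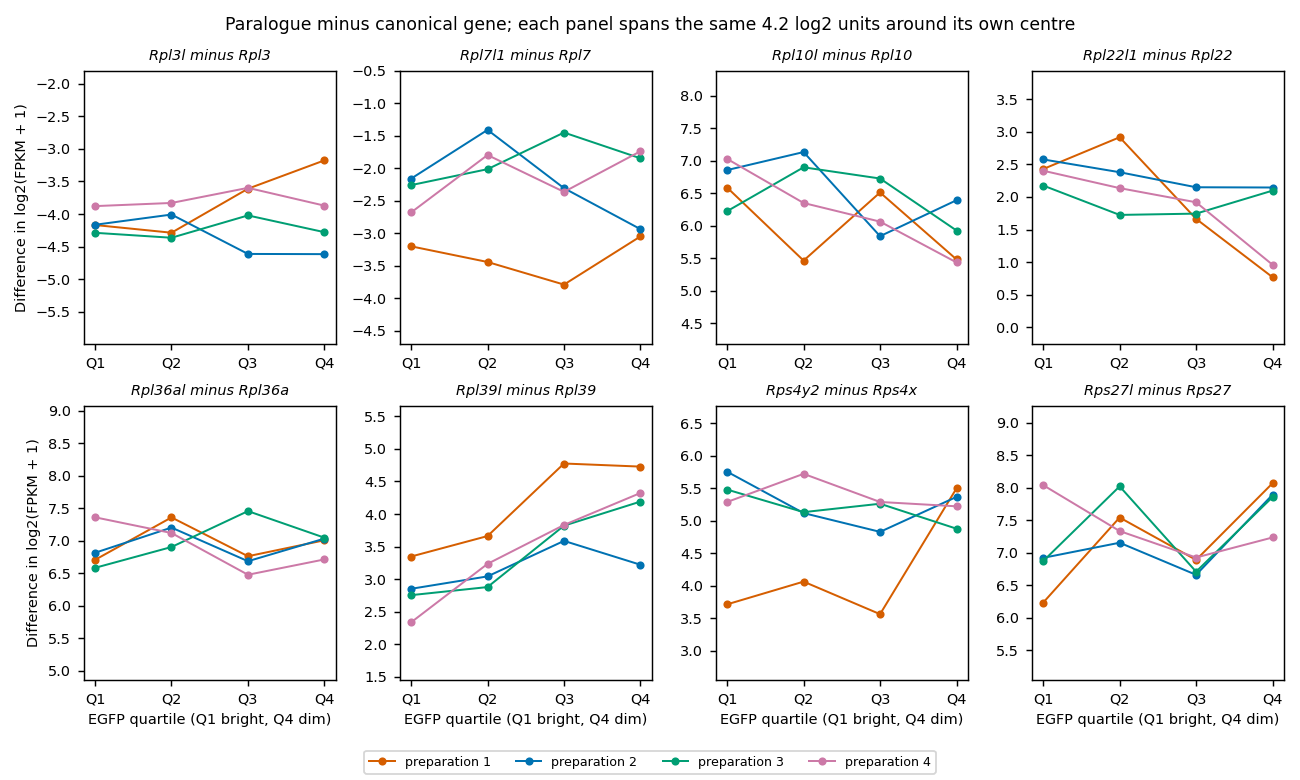
Paralogue minus canonical gene in log2(FPKM + 1), as the mean over cells in each preparation (lines) and EGFP quartile; every panel spans an equal height. The Rpl39l minus Rpl39 lines climb from Q1 to Q4 (mean 2.82 to 4.12) and the Rpl22l1 minus Rpl22 lines fall (2.40 to 1.49), while the other pairs have no slope past the threshold.

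Preparations differed less in the members than over all tested genes, whose levels are mostly lower. The range of the 4 preparation means had a median of 0.355 over the members and 0.758 over all tested genes. No set of genes matched for level was compared, so the part of level in this was not tested. Preparation 1 had its 4 quartile means below the other 12 for 2 of 79 members, Rplp2 and Rps2, against 8.66% of all tested genes, and above them for 1, Rpl23 (0.173%). Preparation 2 stood above for Rpsa, a laminin-binding small subunit protein (1 of 79, 0.154% of all tested genes), and preparation 3 below for Rpl24 (1 of 79, 0.0384%). Preparation 3 stood above for 0 members (0.048% of all tested genes), and preparation 4 below for 0 (0.0192%) and above for 0 (0.634%). Rps2 had quartile means of 4.01 to 5.12 in preparation 1 and 5.17 to 6.05 in the others. Exons of Rps2 overlap those of Snora64 on the same strand and Snhg9 on the opposite strand, and 79% of its 50-base stretches occur in other genes. Each preparation is 1 sample, so these are descriptions.

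Across single cells, members listed in every cell moved together. Over the 37 members at 1 FPKM or more in all 300 cells the median Pearson correlation of a pair across the cells of 1 preparation was 0.19, 0.37, 0.35 and 0.38, and over the 182 other genes with that property 0.03, 0.04, 0.05 and 0.09. The cells of 1 preparation share their source and the FPKM scale, and this is a description. The spread across cells of 1 preparation and quartile had a median SD of 0.54 log2 units over these members against 0.77 over the other genes.

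Genes that make or serve ribosomes were read from the same fit. Over all tested genes, 2.72% passed as higher and 0.528% as lower in Q1, and 3.77% rose and 0.74% fell in the trend. The counts in the short lists below are to be read beside these shares. Of 54 genes of ribosome biogenesis, 0 passed between Q1 and Q4 and 1 fell towards bright cells in the trend, Nhp2, a core protein of box H/ACA particles that guide pseudouridylation (-0.30 per step, limma adjusted p = 0.024). Of 17 genes of ribosomal DNA transcription and of 7 elongation factors, 0 passed in either test. Of the 15 tested regulators of ribosomal protein synthesis, Eif4ebp1, which binds the cap-binding factor eIF4E when mTOR is off, was lower in Q1 by 1.34 (5.82 ± 0.40 against 7.16 ± 0.68, SD, n = 4, limma adjusted p = 0.027) and fell in the trend. Of 10 assembly chaperones 1, Bccip, rose in the trend (0.44 per step, limma adjusted p = 0.039). Ribosomal proteins outside the naming rule had small differences, with -0.19 for Fau and 0.04 for Gnb2l1. Of 76 mitochondrial ribosomal protein genes, which serve a separate ribosome, 1 passed as lower in Q1, and their median difference was -0.09.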

How the data were processed

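Libraries were made with the SMARTer kit on the Fluidigm C1, and dead cells and multiplets seen in chip images were left out, per the labels' protocols; no doublet caller was run. TopHat, Cufflinks, Picard and FastQC with mm10 and GRCm38 are named, without versions, in the submitters' processing notes. The deposited table holds FPKM per gene name and cell, read so from Cufflinks and the values, since its header names no unit; the authors' filters and their handling of multiply mapped reads are not given in the sources used here. Counts and depth per cell were not used here, so precision rests on how quartile means vary within and across preparations. The preparation was taken from the number after Seq in the sample title, which the labels do not call a preparation outright. In the table, 0 columns lacked a sample and 0 columns were identical. Nothing names separate animals within a preparation, so no p-value measures the spread between animals. With the preparation as block, limma's p-values rest on how quartile differences vary between preparations, with variances moderated over all tested genes. Those of the permutation test rest on the quartile means within each preparation.

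Cells were averaged as log2(FPKM + 1) per preparation and quartile (16 means), for the 10411 genes at 1 FPKM or more in at least 30 cells, and fitted with limma 3.58.1 (R 4.3.3, trend and robust variances) with quartile and preparation as terms, Benjamini-Hochberg adjustment over all genes and a threshold of 0.05. Preparations pair the quartiles, since the cells of each come from the same pooled animals; deviations of quartiles of 1 preparation correlated at a median of 0.13 (0.011 to 0.36), those of different preparations at -0.14. Pairs were tested by exact permutation within preparations (331776 relabelings, smallest possible p 6.03e-06). Rps4l was matched to the row under its older name, Rps4y2, after seeing the table. Coding and shared sequences came from GENCODE transcripts of GRCm38. The limma fit and the search for shared stretches were tested on simulated data. The fit recovered 30 of 100 genes changed by 1 log2 unit and 90 of 100 changed by 2, with 5 calls among 10211 unchanged genes, in the Q1 against Q4 test of 10411 genes.

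Named genes are both genes of each pair, the X-linked and P-stalk members, the 5 highest and lowest members, the 5 most positive and negative differences, the 5 smallest p in each test, the 3 widest ranges between preparations, any past the threshold and up to 3 genes of each other list. The members and lists were chosen with earlier results of these data known. Alternatives were the pseudocount, filter, rescaling, centring, block, covariate, log of the mean and leaving out each preparation. Added after seeing the data were only cells that listed the gene or both genes and members with little shared sequence. Also added then was leaving out the 25 cells that listed Ptprc, Csf1r, Emr1, Pecam1, Acta2, Myh11 or Cnn1. Id4 itself was not analysed here, and some genes that the rule for named genes gives are not reported here; 3 members are left out of the plots and stay in all counts.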

Additional observations from a re-analysis of the deposited data

Results flagged for a closer look

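Of 46 sets of 4 preparation values tested for 1 value far from the other 3, 4 were marked, and chance marks about 1 in 20. The Q1 minus Q4 difference of Rps4y2 was -0.90 in preparation 1 and 0.21 to 0.32 in the others, and the slope of Rps4y2 minus Rps4x was -0.48 in preparation 1 and 0.06 to 0.17 in the others, which is the same Rps4y2 measurement. Rpl17 had a difference of 1.27 in preparation 2 and -0.22 to -0.07 in the others. Rpl31 had a difference of -0.19 in preparation 3 and 0.51 to 0.58 in the others.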

How the results depend on the processing

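The Q1 against Q4 count of members higher in bright cells was 1 (Rpl39). It became 0 with no replicate block and with log2 of the mean FPKM, and 0 to 1 on leaving out a preparation. The count of lower members was 0, and 0 to 1 (Rpl30, without preparation 3) on leaving out a preparation. That count was 1 (Rpl30) without the 25 cells that listed Ptprc, Csf1r, Emr1, Pecam1, Acta2, Myh11 or Cnn1, a setting added after seeing the data. In the trend the rising count of 1 became 0 with log2 of the mean FPKM. The falling count of 1 became 0 with pseudocount 10, no filter, a 150-cell filter, no replicate block, the covariate of detected genes and log2 of the mean FPKM, 3 with centring, and 0 to 1 on leaving out a preparation. Without the block Rpl39 had 1.79 between Q1 and Q4 (limma adjusted p = 0.0551), and in all genes the Q1 against Q4 calls went from 338 to 99. Other settings gave 80 (log2 of the mean) to 361 calls (pseudocount 0.1), with 177 without a filter, 173 with the 150-cell filter and 135 with the covariate, which moved the median of all genes to -0.01. The Rpl39l minus Rpl39 slope was -0.17 with log2 of the mean, -0.0028 in cells with both genes (added after seeing the data) and -0.57 to -0.41 on leaving out a preparation. The Rpl22l1 minus Rpl22 slope was 0.14 with log2 of the mean and 0.21 to 0.41 on leaving out a preparation. The Q1 minus Q4 difference in the per-cell mean moved by less than its SD over preparations in every setting run. These included the members with at most 50% of their 50-base stretches shared (-0.03, added after seeing the data). The FPKM share was rerun only by leaving out each preparation. Leaving out a preparation cannot move a mean by as much as that SD, and both SDs are larger than the mean differences. A shift below the SD therefore does not show that either value is stable.

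Values that missed the threshold throughout and changed sign were these, and the cause was not tested. With the covariate, Q1 minus Q4 was 0.11 for Rpl3, 0.12 for Rpl7, -0.021 for Rps27, 0.074 for Rplp1, 0.041 for Rpl41 and 0.12 for Rpl11. Rps4x had -0.032 with pseudocount 10 and with centring and -0.093 with log2 of the mean, under which Rps4y2 had 0.058 and Rpl31 -0.18. Rplp1 had 0.015 with rescaled cells and Rpl26 -0.0085 with centring. Leaving out a preparation gave ranges of -0.26 to 0.086 for Rpl3, -0.16 to 0.033 for Rpl7, -0.10 to 0.29 for Rps4x, -0.16 to 0.25 for Rps4y2, -0.17 to 0.79 for Rps27, -0.046 to 0.058 for Rplp1, -0.21 to 0.023 for Rpl41, -0.15 to 0.35 for Rpl17, -0.19 to 0.056 for Rpl11 and -0.28 to 0.78 for Rpl26. For pair slopes, Rpl7l1 minus Rpl7 had 0.0090 with pseudocount 10, 0.041 with log2 of the mean and 0.023 in cells with both genes. Rpl36al minus Rpl36a had -0.051 with pseudocount 10 and -0.027 in cells with both, and -0.013 without the 25 cells named above. Rps4y2 minus Rps4x had 0.018, 0.046 and 0.12 under these 3 settings in that order. Leaving out a preparation gave -0.14 to 0.044 for Rpl7l1, -0.080 to 0.071 for Rpl36al, -0.092 to 0.13 for Rps4y2 and -0.14 to 0.044 for Rpl3l, each minus its partner. The share of cells with Rpl7l1 changed by -2.06 to 0.148 percentage points per step. FPKM carries no read number, so low values have no counting interval.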

Other observations

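The table also holds 6 rows named as pseudogenes of a member. Rplp2-ps1 had a mean of 958 FPKM against 117 FPKM for Rplp2 and was the higher of the 2 in all 300 cells, with a Q1 minus Q4 difference of -0.15 (SE 0.13, limma adjusted p = 0.617). Rps15a-ps6 had 15.5 FPKM against 10.8 FPKM for Rps15a and was higher in 218 cells, and Rps15a-ps4 had 8.42 FPKM and was higher than Rps15a in 75 cells. Rps19-ps3 had 3.02 FPKM against 639 FPKM for Rps19, and Rpl31-ps12 2.38 FPKM against 7.72 FPKM for Rpl31. Rpl34-ps1 reached 1 FPKM in 0 cells. Rps3a1, a small subunit protein gene outside the naming rule, was at 1 FPKM or more in all 300 cells, with a mean of 228 FPKM and a Q1 minus Q4 difference of -0.30 (SE 0.19, limma adjusted p = 0.451). None of these rows that passed the filter passed limma's test at an adjusted p of 0.05. How reads were divided between these rows and their parents was not tested.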
